A study of Mus musculus with 8 samples.

Results

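The extracellular matrix genes, the integrins and the matrix proteases were followed in N6-methyladenosine (m6A) maps of mouse embryonic fibroblasts (MEFs). The members were the peaks whose gene symbol begins with Col, Lama, Lamb, Lamc, Itga, Itgb, Fbn, Fbln, Thbs, Adam, Adamts, Mmp, Timp or Lox, with a number where the family uses one, together with Fn1. They came to 454 of 38705 peaks, 96 of 9779 genes with a peak and 237 of 21168 regions, a region being a stretch of overlapping peaks from any of the libraries. All cells were wild type C57BL/6 MEFs, prepared from embryos of 13.5 days post-coitum, then used at passage 5 to 6. Control cells were untreated, and starved cells spent 2 h in a nutrient-deprived medium, which the methods name as Hank's balanced salt solution. Each group had 2 libraries of mRNA captured with an m6A antibody (IP) and 2 matching inputs, and the 4 IP libraries, each with its own peak list, are the replicates here. The study describes the 2 libraries of a group as biological replicates; whether they came from separate embryos was not given in the sources used here.

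m6A is placed on mRNA co-transcriptionally by the METTL3 and METTL14 methyltransferase, most often at the adenosine of GGAC and related sequences, and is found mainly in long internal exons and in the last exon around the stop codon. Readers of the YTHDF family bind the mark and tie it to translation and mRNA decay. Fibroblasts secrete the collagens, fibronectin, fibrillins and laminins that make up the fibrous and basement membrane matrix, hold on to it through integrin α and β receptor pairs, crosslink it with lysyl oxidases and remodel it with metalloproteinases of the Mmp, Adam and Adamts families, which the TIMP inhibitors restrain. The long triple helices of collagens are encoded by many short exons of a Gly-X-Y repeat.

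The lists held 10103 and 9871 peaks in the control and 9757 and 8974 in the starved libraries. Read depth was not known from the lists, and a gene without a peak may be unmethylated, weakly expressed or below the calling limit. Fold enrichment, the ratio of IP to input signal at a peak, had a median over all peaks of 12.2 and 12.3 in the control and of 14.6 and 14.7 in the starved libraries, so every list-wide comparison below starts from a higher level after starvation. Of 10 fibroblast marker genes 7 had a peak in at least 1 library, among them Pdgfra, Pdgfrb, Prrx1 and Twist1, whereas Col1a1, Vim and Fap had none. Endothelial and epithelial markers had a peak for 2 of 4 genes each, blood cell markers for 1 of 4 and muscle markers for 1 of 3. Those with a peak were Kdr, Tek, Krt8, Krt18, Cd68 and Des, and Kdr had 2 and 0 peaks in the control and 1 and 2 in the starved libraries. Pecam1, Cdh5, Epcam, Cdh1, Ptprc and Myod1 were among those without a peak.

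Collagens carried the most peaks of the class comparison, with 129 peaks in 23 genes and 66 regions, against 90 peaks in 28 protease genes and 68 peaks in 16 integrin genes. Laminins had 57 peaks in 7 genes, Fn1 with the fibrillins, fibulins and thrombospondins 63 in 9 genes, and lysyl oxidases 27 in 4 genes. The remaining peaks fell to 4 ADAMTS-like genes with 12, to Timp2 and Timp3 with 1 each, and to Col4a3bp, Itgb1bp1 and Itgbl1 with 6 in all. Those last 3 genes meet the rule by name only: Col4a3bp encodes a ceramide transfer protein and Itgb1bp1 an adaptor that binds an integrin tail.

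Of the annotated genes, 21 of 44 collagens (47.7%), 11 of 27 integrins (40.7%), 47 of 75 proteases (62.7%) and 4 of 11 laminins (36.4%) had no peak in any library. Over all 21744 coding genes the share without a peak was 57.8%, matched by symbol, so that genes listed under another symbol count as without one. Besides Col1a1, which encodes the α1 chain of type I collagen, the genes without a peak included Lox, the founding lysyl oxidase, and Timp1. Col1a2, the partner chain of Col1a1, was listed only in starved library 1, with 2 peaks. Among the 11 integrins without a peak were the leukocyte integrins Itgal, Itgam, Itgax and Itgb2.

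The number of member peaks was 100 and 120 in the control and 119 and 115 in the starved libraries, and these values overlapped between the groups. As a share of its list the members took 0.99% and 1.22% in the control and 1.22% and 1.28% in the starved libraries, with starved higher by 0.148 percentage points (exact permutation p = 0.333, two-sided, the smallest that 2 libraries against 2 can give). This difference was 0.035 points without control library 1 and 0.261 without control library 2. Collagens were listed with 26 and 32 peaks in the control and 34 and 37 in the starved libraries, so that both starved lists held more collagen peaks than both control lists (difference of the means 6.5, exact permutation p = 0.333). Integrin peaks numbered 17 and 16 in the control and 19 and 16 in the starved libraries. Protease peaks numbered 23 and 25 in the control and 25 and 17 in the starved libraries, the low value being that of starved library 2, the shortest list.

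**Figure D1:**
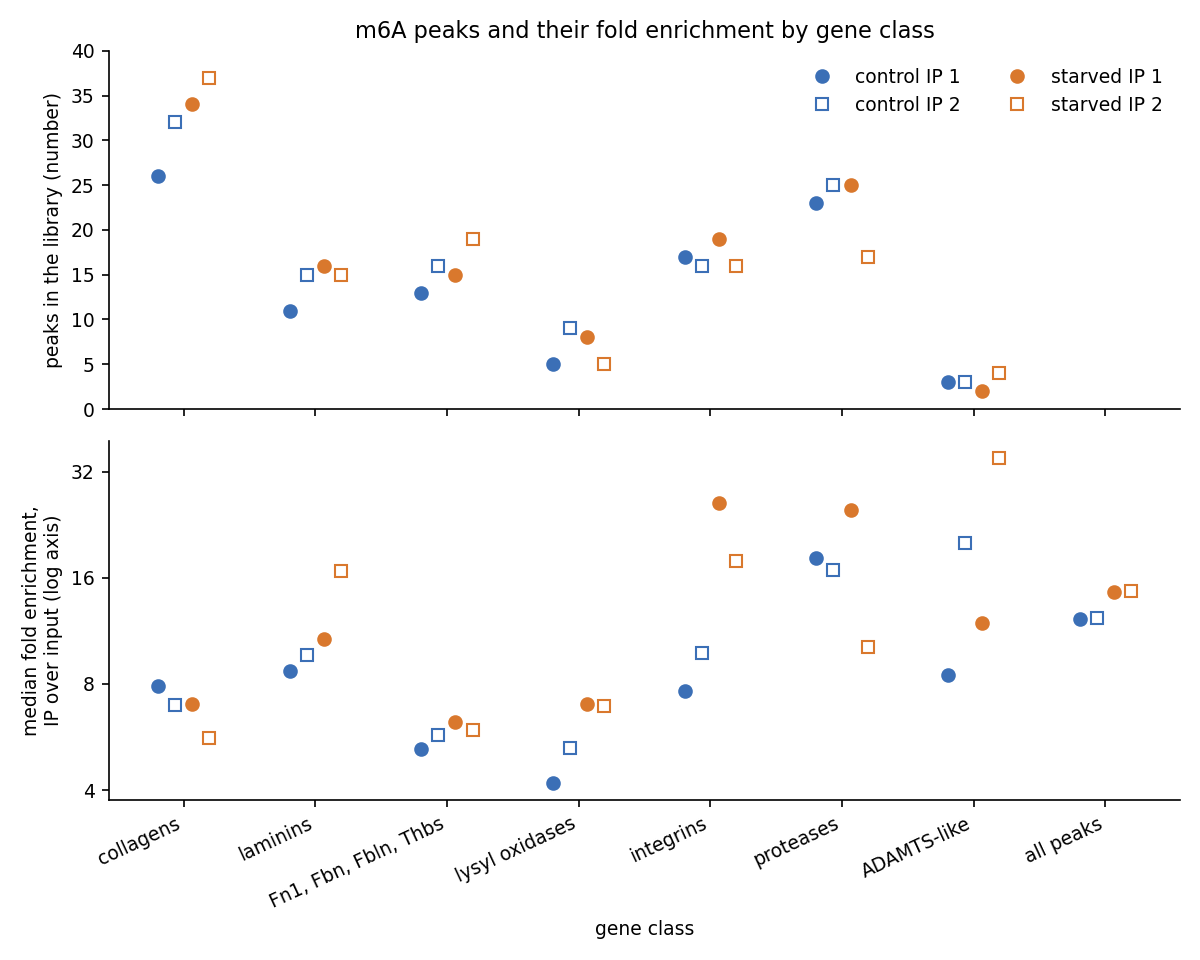
Number of peaks (upper panel) and median fold enrichment of IP over input on a log axis (lower panel) for each gene class, with 1 point per IP library (blue control, orange starved; filled circles replicate 1, open squares replicate 2). Collagen peak numbers ran from 26 to 37 with both starved libraries on top, and the integrin medians of the starved libraries, 26.0 and 17.9, lay above those of the control libraries, 7.63 and 9.80.

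The 3 main classes differed in where their peaks lay on the transcript. Collagen peaks were mainly in the coding sequence, at 57.7% and 68.8% of the placed peaks in the control and 70.6% and 75.7% in the starved libraries (mean 68.2% ± 7.58, SD, n = 4 libraries). Integrin peaks were in the coding sequence at 31.3% and 26.7% in the control and 36.8% and 31.3% in the starved libraries (31.5% ± 4.16). Protease peaks took a middle place, at 39.1%, 36.0%, 45.5% and 35.3% in the same order (39.0% ± 4.63). The coding share of all peaks was 46.9% ± 0.95, so that collagens were above it, and integrins and proteases below it, in every library. The classes also differed in how much of the combined length of coding sequence and 3′ UTR was coding. In genes with a peak it was 80.2% for collagens, 90.7% for laminins, 55.3% for integrins and 56.5% for proteases. Over all genes it was 56.5%. The part of these lengths in the coding and 3′ UTR shares of the peaks was not tested.

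Within libraries, the coding share of collagens exceeded that of integrins by 36.7 percentage points ± 8.22 (SD of the 4 differences, 26.4 to 44.4), and that of proteases by 29.2 points ± 9.44 (18.6 to 40.4). Proteases exceeded integrins by 7.47 points ± 2.36 (4.04 to 9.33). Each of the 3 differences had the same sign in 4 of 4 libraries, with an exact permutation p by sign changes of 0.125, the smallest that 4 libraries allow, and 0.125 after Benjamini-Hochberg adjustment over the 3. The gap of collagens over proteases was 22.1 points without Col6a3, and 15.4 points without the peaks that span exactly 1 whole exon; both alternatives were chosen after seeing the data, and neither changed a sign.

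The 3′ UTR showed the reverse order. It held 53.0% of the integrin peaks (35 of 66 placed), 43.7% of the protease peaks (38 of 87) and 16.3% of the collagen peaks (21 of 129), against 35.9% of all peaks. Laminins resembled collagens, with 64.9% of 57 peaks in the coding sequence and 12.3% in the 3′ UTR, although in control library 1 only 36.4% of the 11 laminin peaks were coding and 45.5% were at the stop codon. The stop codon window, 100 nt to each side, held 12.5% of all peaks but 4.65% of the collagen, 4.55% of the integrin and 6.90% of the protease peaks, and each of these 3 classes was below all peaks in 4 of 4 libraries (exact permutation by sign changes, p = 0.125).

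Over all members the stop codon share was 13.1% and 8.55% in the control and 2.59% and 6.09% in the starved libraries. The groups did not overlap (difference of the means -6.50 percentage points, exact permutation p = 0.333), while the share over all peaks was 12.9% and 12.3% in the control and 12.2% and 12.6% in the starved libraries. The member difference was -4.21 points without control library 1 and -4.75 without starved library 1. No integrin peak of a starved library fell in the stop codon window, against 3 integrin peaks of the control libraries.

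**Figure D2:**
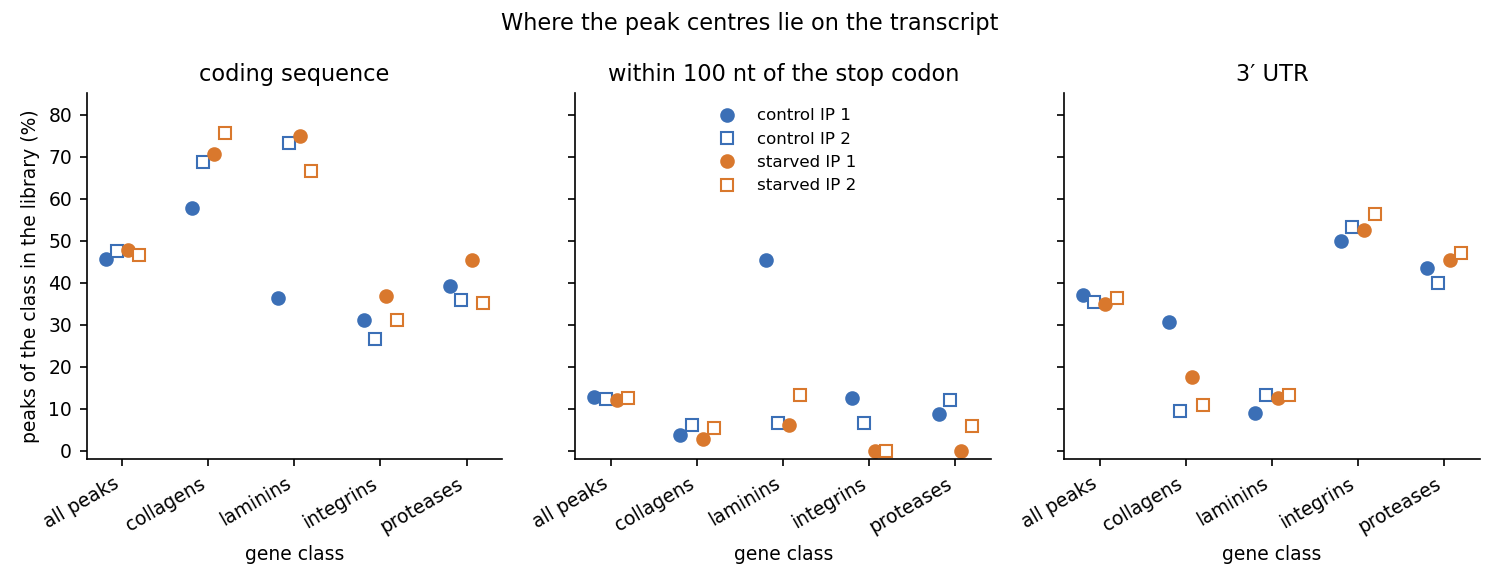
Share of the placed peaks of each class, in percent, whose centre was coding, in the stop codon window (100 nt to each side) or in the 3′ UTR, with 1 point per IP library (blue control, orange starved; filled circles replicate 1, open squares replicate 2). Collagen peaks were coding in 57.7% to 75.7% and integrin peaks in 26.7% to 36.8% of cases, and the laminin point at 36.4% is control library 1.

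Collagen peaks were rare in the short exons that make up most of the collagen coding sequence. The typical coding exon of a collagen gene with a peak measured 63 nt, against 158 nt over all genes, and 33.4% of collagen coding sequence lay in exons of at least 200 nt, against 53.0% over all genes. Yet 94.4% of the collagen peaks in coding sequence were centred in such exons, and only 5 of 89 in a shorter one. The same held for integrins, with 23.7% of the coding sequence and 95.2% of 21 coding peaks in exons of at least 200 nt, and for proteases, with 36.9% and 85.3% of 34 peaks. Over all genes the figures were 53.0% and 92.0%.

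The lists held no peak shorter than 200 bp, and many peaks followed exon borders. Of the collagen peaks 51.2% spanned exactly 1 whole exon, as did 45.6% of the laminin, 15.2% of the integrin and 10.3% of the protease peaks, against 12.1% of all peaks. Collagens were above all peaks in this measure by 38.2 percentage points ± 8.63 (SD, 4 of 4 libraries, exact permutation by sign changes p = 0.125). Whether peak ends were set to exon borders when peaks over exons were kept was not given in the sources used here. The part of such trimming in the shares of whole-exon peaks and of long exons, and that of the minimum peak length in the scarcity of peaks in short exons were not tested.

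GGAC itself was dense in collagen coding sequence, and denser in the exons under 200 nt, where few peaks were centred. That exon limit equals the length of the shortest peak in the lists, and its part in this contrast was not tested. The 23 collagen genes with a peak held 10.4 GGAC per kb of coding sequence, against 5.41 in integrins, 5.90 in proteases and 4.90 over all genes. In collagens 75.4% of these began in frame, so that GGA is a glycine codon, and 45.9% went on as a glycine and a proline codon, against 22.7% and 6.4% over all genes. Collagen exons under 200 nt held 12.3 GGAC per kb and the longer ones 6.51, and only 21% of collagen GGAC lay in the longer exons, which held nearly all coding peaks. In proteases the density was 6.04 and 5.65 per kb and 35.4% lay in the longer exons. Integrins had the opposite order, with 5.07 per kb in the shorter and 6.50 in the longer exons.

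**Figure D3:**
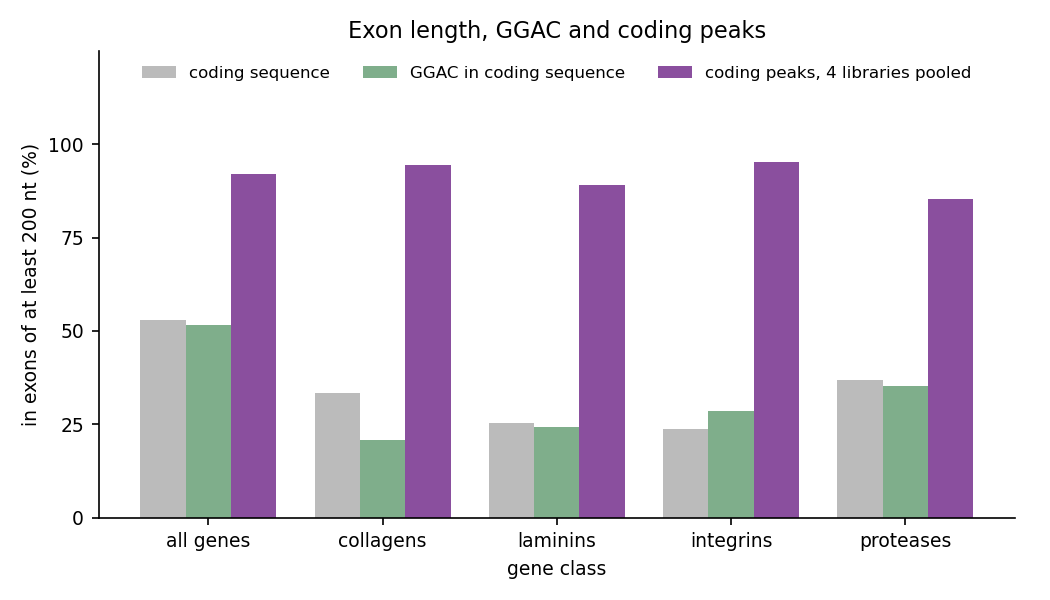
Percent of the coding sequence (grey), of GGAC in coding sequence (green) and of coding peaks pooled over the 4 libraries (purple) that lay in exons of at least 200 nt, for all genes and for the genes of 4 classes with a peak. Collagens had 33.4% of their coding sequence and 21% of their GGAC in such exons, but 94.4% of their coding peaks.

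A window of 200 nt at the peak centre held GGAC, read on the sense strand of the transcript, for 64.6% and 69.2% of the member peaks in the control and 69.8% and 73.9% in the starved libraries. All peaks reached 62.2% and 63.7% in the control and 64.5% and 64.8% in the starved libraries. Members were above all peaks by 5.61 percentage points ± 2.73 (SD, 4 of 4 libraries, exact permutation by sign changes p = 0.125), and collagens by 8.68 points ± 3.64. Integrins and proteases were above all peaks in 3 of 4 libraries each, and laminins in 2 of 4. The member genes also held more GGAC in their coding sequence, 7.11 per kb against 4.90 over all genes, with or without a peak. By class it was 10.4 in collagens, 5.90 in proteases, 5.46 in laminins and 5.41 in integrins. The 3′ UTRs of the member genes held 2.91 per kb against 2.88. The part of this density in the window shares was not tested. Between the groups the member share differed by 4.93 points (exact permutation p = 0.333), with no overlap. The groups overlapped with equal list lengths, where the difference was 2.82 points. The difference was 2.64 points without control library 1 and 2.89 points without starved library 2. The nearest values of the groups, 69.2% and 69.8%, lay close.

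Collagen peaks had a median of 7.88 and 6.96 in the control and 7.02 and 5.61 in the starved libraries, and lay below all peaks in 4 of 4 libraries. Protease peaks had a median of 18.2 and 16.8 in the control and 25 and 10.2 in the starved libraries. Within libraries the collagen minus the protease median was -1.30 ± 0.40 on the log2 scale (SD of the 4 differences, exact permutation by sign changes p = 0.125, 0.375 after Benjamini-Hochberg adjustment over 3 such contrasts). Neither collagens against integrins (-1.0 ± 0.92, exact p = 0.25) nor proteases against integrins (0.30 ± 0.90, exact p = 0.75) had the same sign in all libraries.

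Integrin peaks had a median fold enrichment of 7.63 and 9.80 in the control and 26.0 and 17.9 in the starved libraries, with no overlap of the groups. The difference of the means was 1.30 on the log2 scale (exact permutation p = 0.333), against 0.26 for all peaks, whose groups did not overlap either. For collagens it was -0.24 and for proteases -0.14, each with overlapping groups, and the protease value was 0.51 without starved library 2. The collagen value was -0.40 without starved library 1, -0.08 without starved library 2 and -0.15 without control library 1. The integrin medians were not taken over the same regions: only 2 of 34 integrin regions had a peak in all 4 libraries, and those 2 moved in opposite directions. The collagen medians were not either, and the 8 of 66 collagen regions in every library went the other way. Their median difference was 0.28 on the log2 scale, with 7 of the 8 higher after starvation.

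Protease regions were seldom found more than once. Of 55 protease regions 38 (69.1%) were listed in a single library, against 45.5% of 66 collagen regions, 44.1% of 34 integrin regions, 51.5% of all 237 member regions and 56.2% of all regions. Protease regions listed in a single library had a median fold enrichment of 23.4, against 7.0 for such collagen regions and 13.1 for such regions of any gene. The highest member value, 549, was an Adamts3 peak of starved library 1, and Adamts14 reached 349 in the same library, with no peak for either gene in the other 3 lists. Adamts3 and Adamts14 cleave the propeptides of fibrillar procollagens.

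At the level of the gene, 29 of 96 members (30.2%) had a peak in every library, against 29.2% of all genes with a peak. They comprised 7 collagens, 7 integrins, 3 laminins, 5 genes of the fibronectin, fibrillin, fibulin and thrombospondin group, 2 lysyl oxidases, 4 proteases and Adamtsl3. For regions the share was 11.4% of members (27 of 237), against 10.7% of all regions. Genes listed in both starved and in neither control library were Itgb1, Itgb8, Loxl3 and Adam12 (4.17%, against 3.19% of all genes), and the opposite pattern was held by 4 proteases, Adamts4, Adamts9, Adamts18 and Mmp15 (4.17%, against 4.56%). For Itgb8, Loxl3, Adamts4, Adamts9 and Adamts18 the peaks of the 2 libraries lay in different regions of the gene.

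Col6a3 carried more peaks than any other member, 32 in 12 regions. It encodes the α3 chain of type VI collagen, a microfibrillar collagen whose large N-terminal part is a row of von Willebrand factor A domains. The gene had 6 and 8 peaks in the control and 8 and 10 in the starved libraries. Its placed transcript has 44 exons, of which 15 measure at least 200 nt, and exons 3 and 5 to 11 each held a region. Exon 10 had the highest values, at a fold enrichment of 81.5 and 49.2 in control and 110.0 and 85.1 in the starved libraries. Exon 6, of similar length, had 5.29 and 4.05 in the control and 4.11 and 5.19 in the starved libraries, well below exon 10 in every library. Other exons came closer in the libraries that listed them: exon 8 had 47.7 in control library 2, against 56.6 and 8.71 in the starved libraries, and exon 7 had 57.5 in control library 1 and 27.6 in starved library 2.

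Lamb1, the β1 chain shared by several laminins of basement membranes, had 19 peaks in 10 regions. It had 2 and 4 peaks in the control but 9 and 4 in the starved libraries, where library 1 alone held 4 regions that no other library listed. The values of exon 26, the one region in every library, were 8.04 and 9.67 in the control and 18.3 and 13.9 in the starved libraries. Itgb5, the β subunit of an integrin that binds vitronectin, led the integrins with 5 regions. Adamts12 and Adam23 led the protease class with 4 each, a class set by gene symbol and not by enzyme activity. The 3′ UTR region of Itgb5 was missing in control library 1 and reached 6.96 in control library 2, against 26.0 and 21.6 in the starved libraries.

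**Figure D4:**
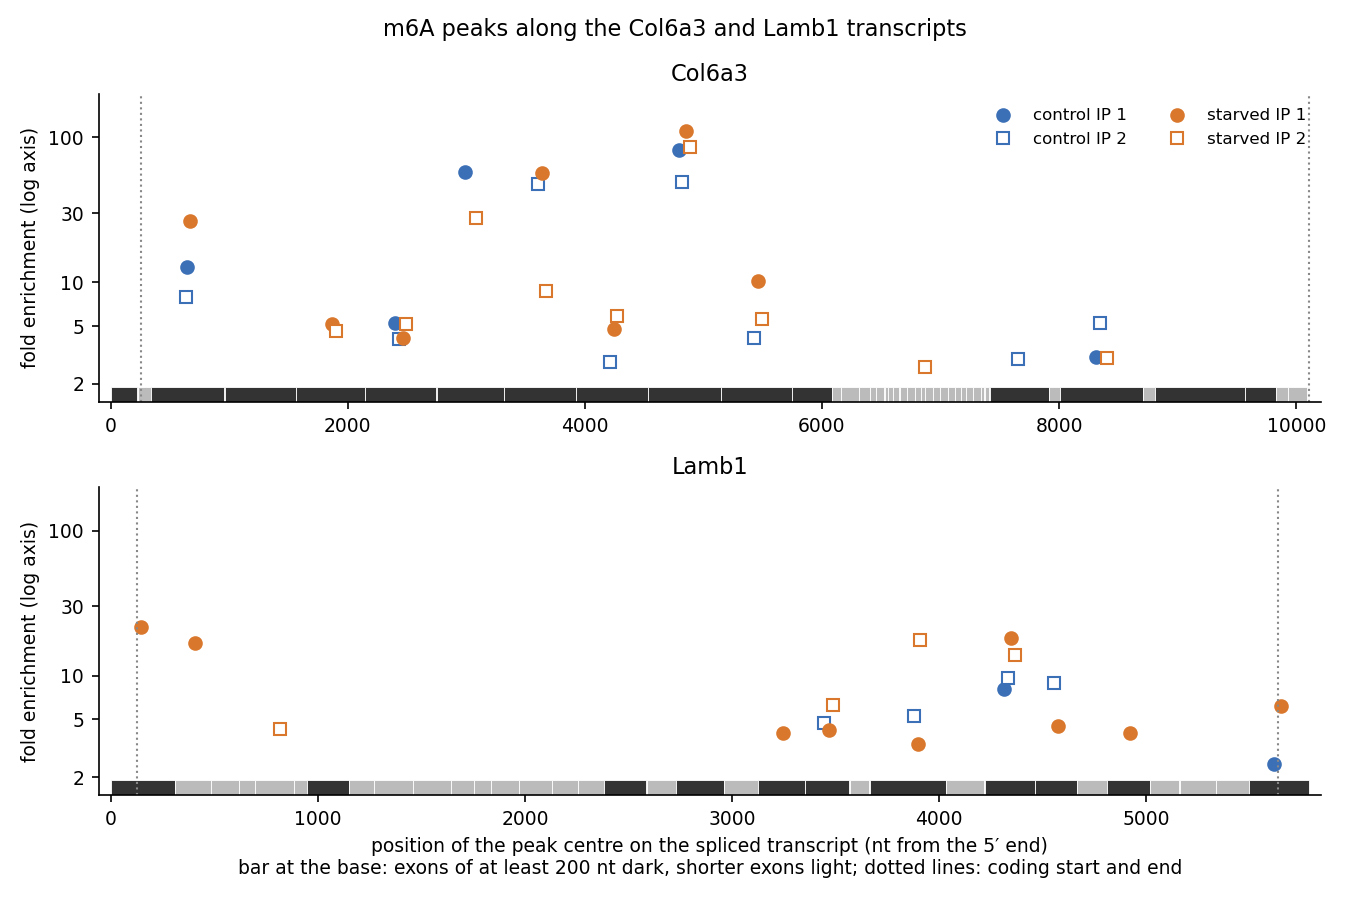
Fold enrichment (log axis) of each peak against the position of its centre on the spliced Col6a3 and Lamb1 transcripts in nt, for the 4 IP libraries (blue control, orange starved; filled circles replicate 1, open squares replicate 2), with exons of at least 200 nt in dark and shorter ones in light grey at the base. Of the 32 Col6a3 peaks 29 are drawn, the other 3 having been placed on another transcript; only 1 of those drawn sits in the row of short exons, and exon 10 of Col6a3 holds the highest value of each library.

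By the mean log2 fold enrichment over the 4 libraries, the strongest member regions found in all of them were in Lamc1, Adamts12, Col6a3 and Adamts5. The 3′ UTR of Lamc1 (chr1:153220356-153221729), the γ1 chain of most laminins, had 107 and 104 in the control and 126 and 120.0 in the starved libraries, without overlap of the groups. Exon 19 of Adamts12 (chr15:11310939-11311645), a secreted metalloproteinase with thrombospondin repeats, had 179 and 93.7 in the control and 86.8 and 104 in the starved libraries. Exon 1 of Adamts5 (chr16:85899164-85900824), which encodes an aggrecan-cleaving enzyme, reached 20.3 and 61.5 in the control and 43.7 and 53.7 in the starved libraries. In both the groups overlapped. The 3 coding regions among these are shown around the GGAC nearest to the peak centre, as examples of the sequence under strong coding peaks. They are written 5′ to 3′ on the sense strand from GENCODE transcripts, build mm10, with GGAC in capitals.
Adamts12, exon 19, chr15:11311228-11311317, + strand: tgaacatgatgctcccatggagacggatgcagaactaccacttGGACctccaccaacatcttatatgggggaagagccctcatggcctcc
Adamts5, exon 1, chr16:85899471-85899560, - strand: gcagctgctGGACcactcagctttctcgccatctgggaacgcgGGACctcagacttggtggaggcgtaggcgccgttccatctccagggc
Col6a3, exon 10, chr1:90803834-90803923, - strand: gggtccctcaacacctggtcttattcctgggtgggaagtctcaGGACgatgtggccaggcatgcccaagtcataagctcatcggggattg

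Among collagens, Col6a3 exon 10 was followed by the 3′ UTR of Col5a2 (chr1:45375469-45376230), a chain of the type V collagen that sits in type I fibrils, with 16.7 and 15.1 in the control and 24.5 and 17.8 in the starved libraries. Exon 8 of Col11a1 (chr3:114097000-114097254), a related fibrillar chain, had 11.6 and 16.2 in the control and 13.4 and 15.9 in the starved libraries. The groups did not overlap for Col5a2 and overlapped for Col11a1. The 2 integrin regions in every library were 3′ UTRs, those of Itga6 and Itga5.

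Of the 27 member regions in every library, 7 (25.9%) had both starved values above both control values, against 22.9% of all such regions, and 5 (18.5%) had both below, against 18% of all. The median difference over the 27 regions was 0.18 on the log2 scale, against 0.10 over all 2257. Among the 7 were 3 of the 4 laminin regions, those of Lama4, Lamb1 and Lamc1, and 2 of the 8 collagen regions, in Col6a3 and Col5a2. Among the 5 were 3 of the 7 regions of the fibronectin, fibrillin, fibulin and thrombospondin group, all of them in Thbs1 and Thbs2. With 2 libraries a group, no single region can reach an exact permutation p under 0.333.

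**Figure D5:**
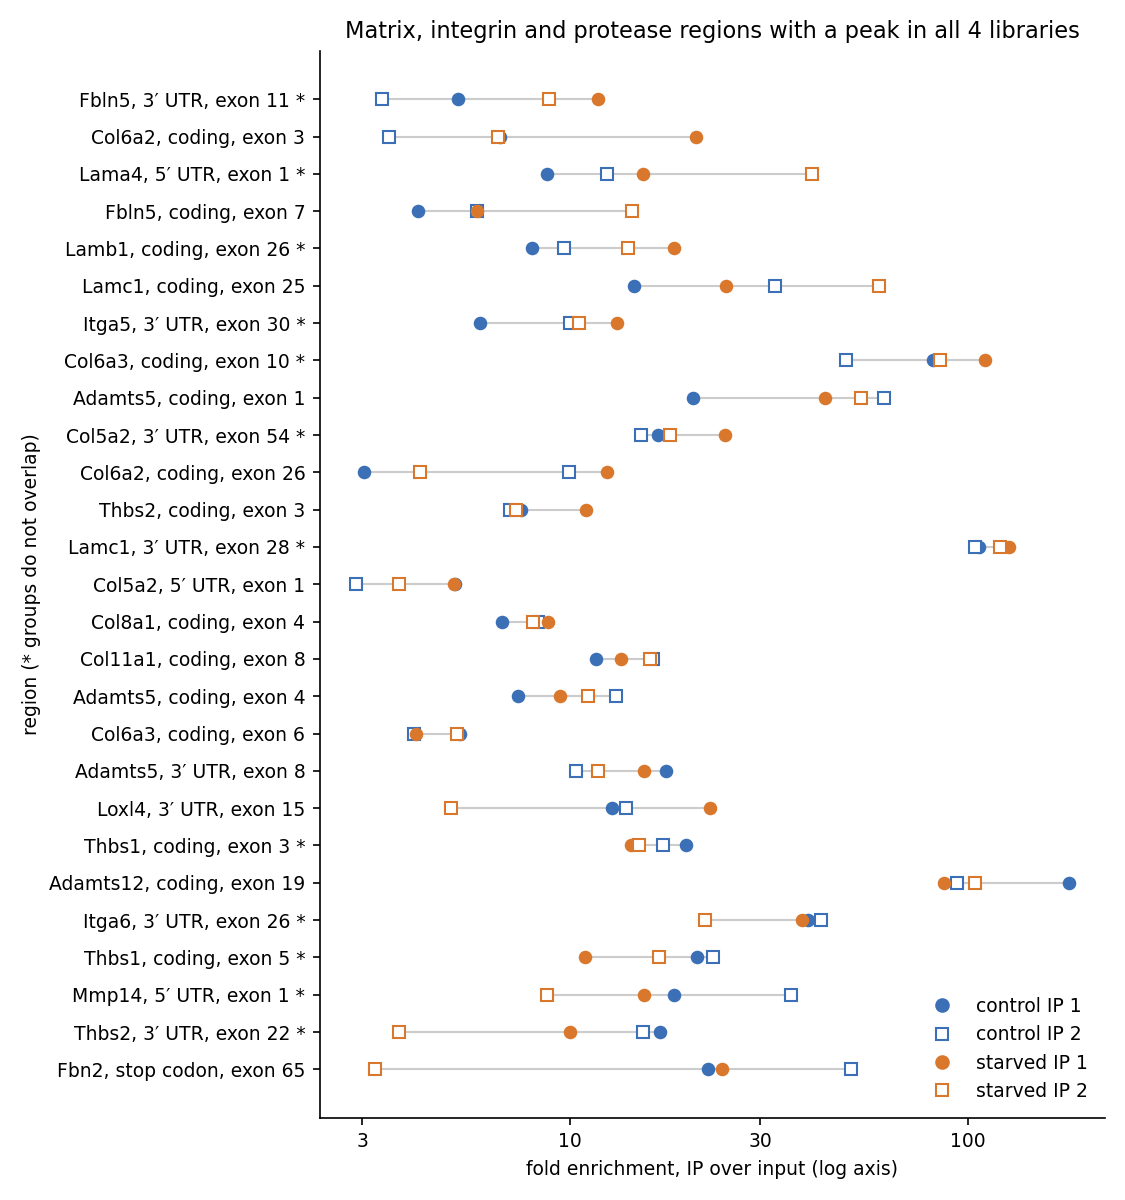
Fold enrichment (log axis) in each of the 4 IP libraries (blue control, orange starved; filled circles replicate 1, open squares replicate 2) for the 27 member regions with a peak in all of them, ordered by the difference of the group means on the log2 scale, highest on top. Asterisks mark the 12 regions whose groups did not overlap, 7 with starved above control and 5 with starved below.

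The widest increase without overlap was at the 3′ UTR of Fbln5 (chr12:101749826-101750903), which encodes a fibulin of elastic fibres. It had 5.22 and 3.37 in the control and 11.7 and 8.87 in the starved libraries, 1.28 higher on the log2 scale. A coding region of the same gene, exon 4, was listed in both control libraries, at 4.19 and 3.91, and in neither starved library. Another, exon 7, was in every library, at 4.14 and 5.85 in the control and 5.85 and 14.3 in the starved libraries, with groups that met at 5.85. The 5′ UTR of Lama4 (chr10:38965700-38966149), the α4 chain of endothelial and mesenchymal laminins, had 8.73 and 12.4 in the control and 15.3 and 40.5 in the starved libraries, 1.26 higher. Lamb1 exon 26 (chr12:31320898-31321139), whose values stand above, was 0.86 higher.

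The 3′ UTR of Itga5 (chr15:103344297-103345352), the α subunit of the main fibronectin receptor, had 5.92 and 9.97 in the control and 13.1 and 10.5 in the starved libraries, 0.61 higher. Col6a3 exon 10 (chr1:90803639-90804253) was also 0.61 higher. In both the nearest values of the groups lay close, 9.97 against 10.5 for Itga5 and 81.5 against 85.1 for Col6a3.

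The widest decrease without overlap was at the 3′ UTR of Thbs2, a matricellular protein that binds Mmp2. It had 16.8 and 15.2 in the control and 10.0 and 3.72 in the starved libraries, a difference of -1.39 on the log2 scale. The coding region of Thbs2 in exon 3 overlapped between the groups, at 7.53 and 7.08 in the control and 10.9 and 7.32 in the starved libraries. The 5′ UTR of Mmp14 (chr14:54431604-54431973), a membrane-bound metalloproteinase that cleaves collagen and activates Mmp2, had 18.2 and 35.9 in the control and 15.3 and 8.73 in the starved libraries, a difference of -1.14.

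Thbs1, an activator of latent TGF-β, had 2 coding regions with lower starved values. Exon 5 (chr2:118114651-118114853) had 20.8 and 22.8 in the control and 10.9 and 16.7 in the starved libraries, a difference of -0.69. Exon 3 (chr2:118112970-118113529) had 19.6 and 17.2 in the control and 14.2 and 14.9 in the starved libraries, a difference of -0.33. The 3′ UTR of Itga6 (chr2:71855854-71857717), the α subunit of laminin-binding integrins, had 39.6 and 42.7 in the control and 38.3 and 21.9 in the starved libraries, a difference of -0.51. Without starved library 2 its starved value lay just below the control values.

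The transcript letters around the GGAC nearest to the peak centre are given for the 2 regions with the widest increase without overlap. They are written 5′ to 3′ on the sense strand, build mm10, with GGAC in capitals. The Lama4 region is named 5′ UTR after its peak centre, which lies just before the coding sequence. Its GGAC lies 84 nt past that centre, so the Lama4 letters are coding sequence of exon 1.
Fbln5, 3′ UTR, chr12:101750548-101750577, - strand: tggtcactctgaaGGACaccctgccctcag
Lama4, 5′ UTR, chr10:38966022-38966051, + strand: acgcagcgtcaggGGACggcaatgcgtttc

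In both starved and in neither control library there were 9 member regions (3.80%, against 3.2% of all regions), and in both control and in neither starved library also 9 (3.80%, against 4.15%). With equal list lengths there were 13 starved-only (5.75%, against 3.61% of all regions) and 7 control-only member regions (3.10%, against 3.57%), and with a score of at least 100 there were 13 (5.73%, against 3.40%) and 11 (4.85%, against 3.92%). By class, collagens held 6 of the 9 starved-only and 4 of the 9 control-only regions, 9.09% and 6.06% of their 66 regions. Integrins held 1 and 2 of 34, proteases 1 and 1 of 55, and laminins none of 30. A region missing from a list may lie just below the calling limit, and most starved-only values were low.

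Type V collagen stood out among the starved-only regions. Col5a1, the α1 chain of type V collagen, had no peak in control library 1 and 1 in control library 2, against 5 and 4 in the starved libraries. Its 3′ UTR (chr2:28036870-28039326) had 12.2 and 9.31 in the starved libraries, exon 65 (chr2:28032591-28032824) 9.75 and 4.35, and exon 7 (chr2:27951287-27951526) 4.86 and 3.95. All 3 were missing from both control lists. A further coding region, exon 62, was in 3 lists, at 5.10 in control library 2, against 2.94 and 4.71 in the starved libraries. Its partner Col5a2 had a starved-only region in exon 2 (chr1:45442647-45442868), at 5.20 and 4.73.

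The other starved-only regions were Col6a3 exon 5 (chr1:90815951-90816535) at 5.18 and 4.59, and Col12a1 exon 14 (chr9:79684194-79684466) at 5.73 and 4.05, the latter in a collagen that decorates fibrils. Fn1 exon 25 (chr1:71613763-71614035) had 3.57 and 5.69, and Itgb1 exon 12 (chr8:128722384-128722622) had 4.41 and 3.10. Itgb1 encodes the β1 subunit shared by most matrix-binding integrins. The 3′ UTR of Adam12 (chr7:133886614-133887971), a metalloproteinase that cleaves growth factor binding proteins, had 5.54 and 8.97. Apart from the Col5a1 3′ UTR in library 1, each of these values was under 10.

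Control-only regions reached higher values. Exon 3 of Col27a1 (chr4:63225436-63225819), a cartilage-type fibrillar collagen, had 40.4 and 44.6 in the control libraries. The 3′ UTR of Itga4 (chr2:79326520-79327063), the α subunit of a receptor for fibronectin and VCAM-1, had 15.6 and 113, and the 3′ UTR of Mmp15 (chr8:95373503-95373883), a membrane-bound metalloproteinase, 17.7 and 68.9. Itga4 had a neighbouring 3′ UTR region, at 7.63 in control library 1, against 28.1 and 51.1 in the starved libraries, and Col27a1 had exon 60 at 53.6 in starved library 2. Mmp15 had no other region.

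The sequences at these 3 regions are given as above. Among member regions listed in both libraries of 1 group and in neither of the other, they had the highest means. Only the first holds GGAC, and the other windows are centred on the peak, because none lay within 150 nt of its centre in the exon.
Col27a1, exon 3, chr4:63225621-63225710, + strand: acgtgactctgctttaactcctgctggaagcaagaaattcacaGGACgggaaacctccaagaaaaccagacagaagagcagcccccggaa
Itga4, 3′ UTR, chr2:79326775-79326804, + strand: cttgtcagcttcggtggatgagtgaagcaa
Mmp15, 3′ UTR, chr8:95373680-95373709, + strand: tcttatagcctggcactagaggtgacagat

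Next came the 3′ UTR of Col2a1 (chr15:97975640-97976186), the main cartilage collagen, at 27.0 and 6.55, and a coding region of Adamtsl3 (chr7:82573977-82574366), a matrix protein without protease domain, at 8.46 and 20.1. Exon 5 of Itga6 (chr2:71819999-71820305) had 4.70 and 9.36, and the 3′ UTR of Col4a5 (chrX:141688096-141688796), a basement membrane collagen, 7.80 and 5.01. Fbln5 exon 4 (chr12:101809716-101809970) and the 5′ UTR of Col3a1 (chr1:45311538-45311832) were lowest, the latter at 3.37 and 3.93. For Itga6 both regions were therefore lower or missing after starvation.

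Fn1, which encodes fibronectin, had no peak in control library 1, 3 in control library 2, against 2 and 3 in the starved libraries. Its region in the most libraries, exon 6, had 5.58 in control library 2, against 5.79 and 7.18 in the starved libraries. The fibrillin Fbn1 had 2 and 2 peaks in the control and 2 and 4 in the starved libraries, none of them in a region common to all 4. Fbn2 had a region at the stop codon in every library, at 22.2 and 50.9 in the control and 24.1 and 3.23 in the starved libraries, where starved library 2 alone was low.

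Among the lysyl oxidases, which crosslink collagen and elastin, the 3′ UTR of Loxl4 was in every library, at 12.8 and 13.8 in the control and 22.4 and 5.02 in the starved libraries. Loxl1 had 1 and 1 peaks in the control and 2 and 2 in starved libraries, and its coding region in exon 1, missing in control library 1, had 7.81 in control library 2 and 7.53 and 10.3 in both starved ones. Loxl2 had 1, 2, 2 and 0 peaks in the same order of libraries, and Loxl3 only starved peaks, at 4.85 in its 3′ UTR in library 1 and 6.94 in exon 10 in library 2. The TIMP inhibitors had 1 peak each, Timp3 at 5.54 in control library 2 and Timp2 at 3.85 in starved library 2, both in the 3′ UTR. The median over lysyl oxidase peaks was 4.18 and 5.28 in the control and 7.02 and 6.94 in the starved libraries, with no overlap (0.57 higher on the log2 scale, exact permutation p = 0.333). The median over all peaks was 0.26 higher. These lysyl oxidase medians rest on 5 and 9 peaks in the control and 8 and 5 in the starved libraries. Only 1 of 10 lysyl oxidase regions was in every library, the 3′ UTR of Loxl4, and it was 0.32 lower with overlapping groups.

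Genes that act beside the members were read from 4 lists. Of 34 matrix glycoproteins and proteoglycans 24 had a peak, and 10 of their 85 regions (11.8%) were starved-only, against 3.2% of all regions, in Hspg2, Tnc, Emilin1, Ltbp1, Ltbp2, Matn2 and Bgn, while 2 (2.35%, against 4.15%) were control-only, in Agrn and Vcan. Of their 12 regions in every library 7 (58.3%, against 22.9% of all such regions) were higher and 1 (8.33%, against 18%) was lower after starvation. Of 28 adhesion receptors and focal adhesion proteins 24 had a peak, with none of 58 regions starved-only and 2 control-only, in Src and Sdc3, and of 6 regions in every library 2 were higher, in Tns3 and Actn1, and none was lower. Enzymes of collagen biosynthesis had a peak for 14 of 21 genes, with none of 21 regions starved-only and 1 control-only, in Crtap, and 1 of 4 regions in every library higher, in Colgalt1. A peak was found for the other matrix proteases and inhibitors in 9 of 12 genes, with no region in 1 group only and a single region in every library, whose groups overlapped.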

How the data were processed

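MeRIP-seq was carried out on poly(A) RNA of MEFs, with 4 IP and 4 input libraries. According to the methods and the labels, the authors used Cutadapt for adapters and HISAT2 2.0.4 for alignment (mm10), called peaks in each IP library against its input with MACS2, and kept peaks that overlap mRNA exons; replicates were not pooled. The 4 deposited lists give a fold enrichment, the ratio of IP to input, a score (-10 times log10 of the p-value, from 50.01 up to a limit of 3100) and a false discovery rate in percent, which was not used here; the authors gave each peak a gene. A table of the authors' own comparison of the groups, with fold changes and p-values, was not used. No list gives read counts, so that depth is unknown and no counting interval could be given; the number of peaks and of libraries limits the precision.

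Peaks that overlapped by 1 bp were merged over the libraries, and the highest fold enrichment per library was kept. Each peak was placed at its middle exonic base on the coding transcript of its gene (GENCODE M21, the same build) with the most exonic bases under it; 447 of 454 member peaks could be placed. Control and starved libraries were set against each other by exact permutation (two-sided), and classes by sign changes of within-library differences; the calculations were tested on simulated data. Scripts used Python 3.11.15, numpy 2.4.6, pandas 2.3.3 and samtools 1.23.1. Named regions were those in both libraries of 1 group only, the 5 widest differences in each direction among regions in all 4 libraries whose groups did not overlap, the 3 most enriched of collagens, integrins and proteases, and the gene with most regions per class; Fn1 and each Lox, Timp and Fbn gene were added. Other named peaks (Adamts3, Adamts14, Itgb8, Col1a2) and the measures of whole-exon peaks were chosen after their values were seen. Members, classes and gene lists were chosen with earlier results of these data known. Alternatives were a fold enrichment of at least 4, a score of at least 100, equal list lengths, other merging, windows and gene sets, each library left out, and the replicate number as a block. Replicate numbers did not pair the libraries (correlation of deviations from the group means -0.02 over 2257 regions). The sequence at 1 named region is not reported here.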

Additional observations from a re-analysis of the deposited data

How the results depend on the processing

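Across 15 alternatives for 18 results, 142 of 163 values kept their direction, or stayed within 1.5 times for counts. The member median log2 fold enrichment, 0.056 higher after starvation, turned to -0.080 with a fold enrichment of at least 4, to -0.085 with equal list lengths, to -0.050 with a score of at least 100 and to -0.031 without starved library 1, and reached 0.142 without starved library 2. The difference in member peaks per library, 7.0, ranged from -3.0 to 17.0 when 1 library was left out, and was -3.0 without control library 1. The protease median log2 fold enrichment, -0.14, ranged from -0.78 to 0.51, the latter without starved library 2, and proteases minus integrins, 0.30, from -0.020 to 0.66, the former without control library 1. Counts of regions loosen by construction when a library is left out: starved-only regions then ranged from 21 (without control library 1) to 46 (without starved library 2), control-only from 13 (without starved library 1) to 45 (without control library 1), regions higher after starvation from 13 (without either starved library) to 22 (without control library 1) and lower ones from 7 (without starved library 2) to 11 (without either control library). The collagen coding excess over integrins ranged from 34.1 to 40.1 points and over proteases from 25.5 to 32.8. With the replicate number as a block, which the data do not show to pair the libraries, the differences are the same by construction, as for the stop codon share of -6.50 and the integrin median of 1.30, and the smallest exact permutation p is 0.5. The design cannot reach p under 0.05 in any comparison, and depth was unknown.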

Other observations

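Tnc, the gene of tenascin-C, an adhesion-modulating matrix glycoprotein outside the families above, had 2 starved-only regions, at 4.55 and 4.79 (chr4:63959785-63960543) and at 3.22 and 4.12 (chr4:64006246-64006509). A region of Tnc in every library (chr4:64016831-64018240) had 6.36 and 7.65 in the control and 36.6 and 21.8 in the starved libraries, 2.02 higher on the log2 scale, and another (chr4:64014895-64015158) had 3.07 and 3.85 against 7.84 and 7.60. Hspg2, which encodes perlecan, had 3 starved-only regions, at 6.75 and 13.2, at 6.45 and 8.51, and at 6.56 and 7.41. Vcan, which encodes versican, went the other way: its long region (chr13:89688285-89693501) had 70.2 and 32.2 in the control and 11.5 and 21.2 in the starved libraries, a difference of -1.60 on the log2 scale. These genes were picked after their values were seen, and none of the values was tested.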
